A study of Mus musculus with 2 samples.

Results

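Piezo1 and Piezo2 are the 2 members described here, out of 140 genes on a MERSCOPE panel, and they were followed through 5 tissue layers that were defined by counts of other genes in the same cell. MERSCOPE images single transcripts of barcoded genes in a tissue section and assigns them to segmented cells. The sections, 10 µm thick, held duodenum and colon of 1 male and 1 female C57Bl6 mouse, labelled as 6 to 10 weeks old, with 6 weeks given for collection. Neither animal carried an allele or a treatment named in the labels. Each animal was imaged as 2 regions, and the labels assign neither tissue to a region.

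A cell was placed in a layer when it held at least 1 count of Des, at least 1 of Pdgfra, at least 2 of Fn1 plus Vim, at least 1 of Cftr plus Kcnn4, or at least 2 of Aqp8 plus Slc26a3. Des encodes desmin, the intermediate filament of muscle, and Pdgfra a growth factor receptor of fibroblast-like cells. Fn1 (fibronectin) and Vim (vimentin) are genes of connective tissue cells. Cftr is the apical chloride channel and Kcnn4 a calcium-activated potassium channel of secreting epithelium, while Aqp8, a water channel, and Slc26a3, a chloride and bicarbonate exchanger, belong to absorptive epithelium. Of 31893 cells, 3183 met at least 1 rule: 796 for Des, 567 for Pdgfra, 980 for Fn1+Vim, 510 for Cftr+Kcnn4 and 922 for Aqp8+Slc26a3. The layers overlapped, and 538 cells met 2 or more rules. The 4 tables shared 0 cell identifiers.

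Piezo1 and Piezo2 (NCBI gene IDs 234839 and 667742) encode large mechanically activated cation channels that open when the membrane is stretched or indented and let calcium into the cell. Piezo1 is known from tissues that bear flow and pressure, including endothelium and connective tissue. Piezo2 is known as the touch and stretch channel of sensory neurons and, in the gut, of enterochromaffin cells of the epithelium. The panel held 0 of 5 listed endocrine markers and 0 of 6 listed endothelial markers, so those cells could not be looked for. The same held for 0 of 3 markers of interstitial cells of Cajal and 0 of 5 immune markers.

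Nearly all of the layer data came from 1 of the 4 regions. Female region 1 held 13707 cells with 45942 panel counts and 3094 of the 3183 layer cells, whereas male region 0, male region 1 and female region 0 held 3048, 582 and 4288 panel counts and 29, 15 and 45 layer cells. Counts were sparse: the median cell with any count held 3 panel counts in female region 1. Levels are therefore given as counts per 10000 counts of the 132 panel genes that no rule uses, summed over the cells of a group. Brackets hold exact 95% Poisson intervals (or exact binomial intervals for shares and ratios), which cover counting error only. The background is given by 40 blank barcodes, which match no gene and were counted in the same cells. The number of probes per gene is not known here, so levels are compared between groups of cells for 1 gene at a time, not between the genes.

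Piezo1 was counted 239 times in 224 cells of female region 1, and Piezo2 172 times in 152 cells. The highest of the 40 blanks had 45 counts in the same cells, so both genes lay above all blanks there. The levels over all cells of that region were 76.8 for Piezo1 (67.4 to 87.2) and 55.3 for Piezo2 (47.3 to 64.2). By number of counts the genes ranked 30 and 37 of the 132.

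The other regions held few counts. Female region 0 had 6 Piezo1 counts, a level of 14.3 (5.26 to 31.2), and 21 Piezo2 counts, a level of 50.2 (31.1 to 76.7). Male region 0 had 1 Piezo1 count, a level of 3.34 (0.085 to 18.6), and 37 Piezo2 counts, a level of 123 (86.9 to 170). Male region 1 had 0 and 1. In female region 0 the highest blank had 32 counts in cells with a panel count, so neither the 6 Piezo1 nor the 21 Piezo2 counts lay above that blank. The median blank had 2 counts over all cells of the region. In male region 0 the highest blank had 7 counts, above the single Piezo1 count and below the 37 Piezo2 counts. Per animal, Piezo1 was 2.83 in the male and 69.4 in the female (36.1 ± 47.1, SD, n = 2), and Piezo2 was 107 and 54.7 (81.0 ± 37.3, SD, n = 2). With 1 animal of each sex, the difference between the animals cannot be told apart from that between sections. An exact permutation test over 2 animals cannot reach 0.05.

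Under the rule, Piezo1 was highest in Fn1+Vim cells and lowest in Aqp8+Slc26a3 cells of female region 1. Its level was 143 in Fn1+Vim cells (112 to 179, 75 counts), 85.3 in Cftr+Kcnn4 cells (52.1 to 132, 20 counts), 73.2 in Pdgfra cells (47.8 to 107, 26 counts) and 59.7 in Des cells (36.9 to 91.2, 21 counts). In Aqp8+Slc26a3 cells it was 11 (5.69 to 19.2, 12 counts). The intervals of the 3 middle layers overlap, so their order is not set by these counts. The interval of Fn1+Vim cells also overlaps that of Cftr+Kcnn4 cells. Only the interval of Aqp8+Slc26a3 cells lies apart from all the others. In the Aqp8+Slc26a3 cells Piezo1 was above 32 of the 40 blanks only, and blank 12 had 31 counts there, so the Piezo1 level in these cells is not distinguishable from background. In the other 4 layers it was above all 40.

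Piezo2 was highest in the same layer but did not separate the Cftr+Kcnn4 and Aqp8+Slc26a3 layers. Its level was 103 in Fn1+Vim cells (77.1 to 134, 54 counts), 84.4 in Pdgfra cells (57.0 to 121, 30 counts) and 65.3 in Des cells (41.4 to 98.0, 23 counts), with intervals that overlap. It was 27.5 in Aqp8+Slc26a3 cells (18.6 to 39.3, 30 counts) and 25.6 in Cftr+Kcnn4 cells (9.39 to 55.7, 6 counts), and neither of these can be placed below the other. The 30 counts in Aqp8+Slc26a3 cells lay above 39 of the 40 blanks and below blank 12.

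**Figure D1:**
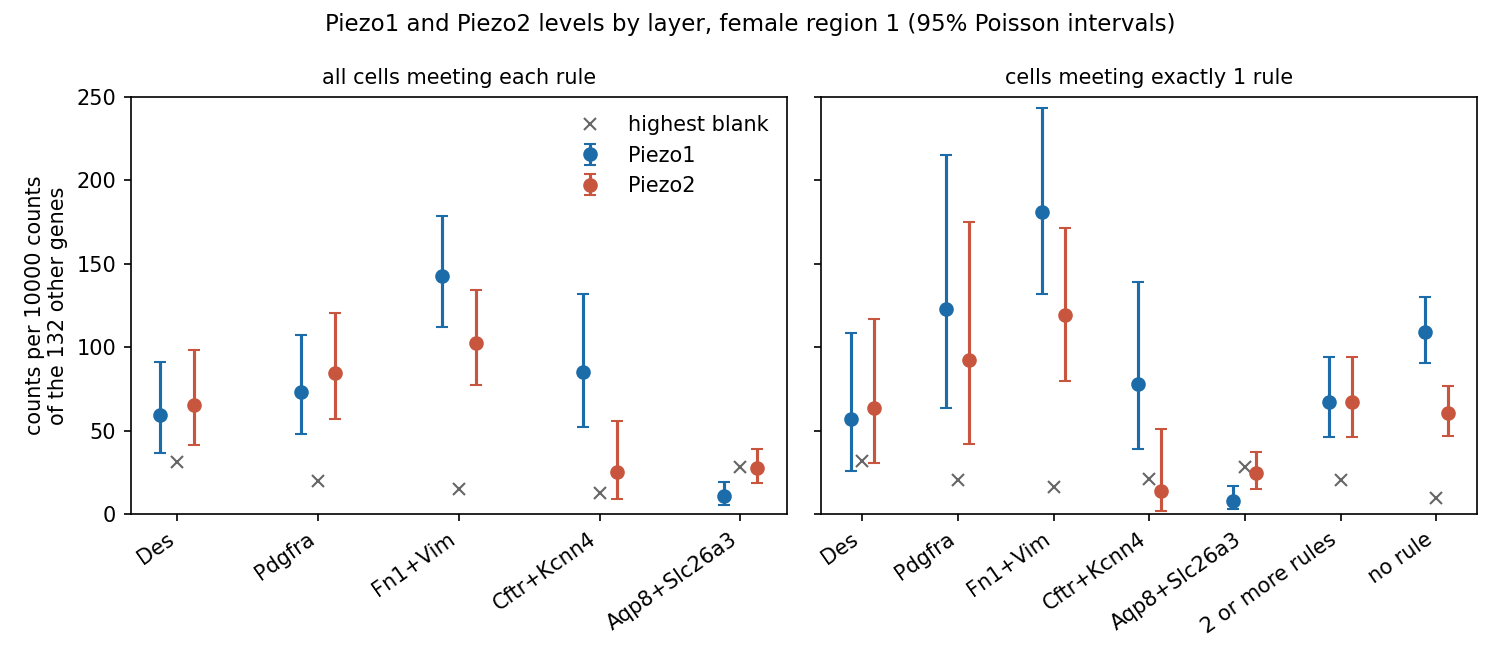
Counts of Piezo1 and Piezo2 per 10000 counts of the 132 other genes (vertical axis) in each layer of female region 1 (horizontal axis), for all cells meeting a rule (left) and cells meeting exactly 1 rule, 2 or more rules or no rule (right). Points are levels, bars are exact 95% Poisson intervals and crosses are the highest blank in the same cells; Piezo1 runs from 143 in Fn1+Vim cells to 11 in Aqp8+Slc26a3 cells, where the blank cross lies above both genes.

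Because 29.2% of Des cells, 45.6% of Pdgfra cells, 37.6% of Fn1+Vim cells, 29.0% of Cftr+Kcnn4 cells and 16.5% of Aqp8+Slc26a3 cells of female region 1 also met another rule, the layers were compared again over cells meeting exactly 1 rule. The Piezo1 level was then 181 in Fn1+Vim cells (132 to 243), 123 in Pdgfra cells (63.5 to 215), 77.8 in Cftr+Kcnn4 cells (38.9 to 139), 57.1 in Des cells (26.1 to 109) and 8.19 in Aqp8+Slc26a3 cells (3.29 to 16.9). Cells that met 2 or more rules stood at 67.1 (46.2 to 94.2) and cells with a count that met none at 109 (90.8 to 130). In Aqp8+Slc26a3 cells the 7 Piezo1 counts were above 31 of the 40 blanks, and the highest blank had 24, a level of 28.1. The level in Fn1+Vim cells was 6.45 times that blank, and no fold over Piezo1 itself is given. Fn1+Vim cells exceeded Des cells 3.17-fold (1.53 to 7.39), Cftr+Kcnn4 cells 2.33-fold (1.18 to 5.00) and cells of no layer 1.66-fold (1.15 to 2.36). Against Pdgfra cells the ratio was 1.47, with an interval of 0.765 to 3.06 that includes 1.

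For Piezo2 the same cells gave 119 in Fn1+Vim cells (80.0 to 172), 92.2 in Pdgfra cells (42.2 to 175), 63.5 in Des cells (30.4 to 117), 24.6 in Aqp8+Slc26a3 cells (15.2 to 37.5) and 14.2 in Cftr+Kcnn4 cells (1.71 to 51.1). Cells of no layer stood at 60.4 (46.9 to 76.6). Piezo2 was not above the highest blank in either epithelial layer. In Cftr+Kcnn4 cells Piezo2 had 2 counts and the highest blank 3, and in Aqp8+Slc26a3 cells Piezo2 had 21 and the highest blank 24. The Fn1+Vim level was 5.62 and 4.25 times those blanks. Fn1+Vim cells exceeded cells of no layer 1.98-fold (1.23 to 3.10). These ratios compare cells of 1 section and carry no test. Among genes with at least 20 counts in the cells compared, the share at least 2-fold higher than in cells of no layer was 19.3% in Des cells, 8.14% in Pdgfra cells, 7.95% in Fn1+Vim cells, 5.81% in Cftr+Kcnn4 cells and 8.16% in Aqp8+Slc26a3 cells. Neither Piezo gene reached 2-fold higher in any of these. The share at least 2-fold lower was 19.3%, 10.5%, 12.5%, 17.4% and 44.9% in the same order. Piezo1 was past 2-fold lower in Aqp8+Slc26a3 cells, where the level in cells of no layer was 3.89 times the highest blank. Piezo2 was past 2-fold lower in Aqp8+Slc26a3 and in Cftr+Kcnn4 cells, where the level in cells of no layer was 2.15 and 2.84 times the highest blank.

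The label of each layer was checked in female region 1 against marker genes that its rule did not use. The muscle kinase gene Dmpk stood at 2546 per 10000 in cells of the Des layer alone, against 570 in cells of no layer and 69.0 in Aqp8+Slc26a3 cells. It was not called higher in Des cells than in cells of no layer in the edgeR fit given below. The epithelial genes Ezr, Shroom3 and Gucy2c together stood at 3805 in Aqp8+Slc26a3 cells, 1649 in Cftr+Kcnn4 cells, 1543 in cells of no layer, 1311 in Pdgfra cells, 774 in Fn1+Vim cells and 673 in Des cells. The Cftr+Kcnn4 and Pdgfra layers thus carried about as much epithelial signal as cells of no layer. Where Cftr+Kcnn4 is called an epithelial layer, the name refers to its rule genes only and was not borne out by these markers. Enteric neuron markers together stood between 41.2 in Fn1+Vim cells and 159 in Des cells, glial markers between 60.8 in Aqp8+Slc26a3 cells and 121 in Des cells, and the Brunner gland gene Muc6 at no more than 1 count in any single layer of that region. The few layer cells of female region 0 differed from these: Muc6 had 53 counts in its Cftr+Kcnn4 cells, 6023 per 10000. Neuron markers stood at 341 in those (3 counts) and at 1597 in its 4 Aqp8+Slc26a3 cells (23 counts). Over all cells of that region with a count, Muc6 stood at 1457 and neuron markers at 1202. The layer cells of female region 0 enter the sums per animal used in the fit, and their part in it was not tested. No fibroblast marker outside the rules was on the panel, so the Pdgfra and Fn1+Vim labels could not be checked in this way. Epithelial counts were present in every layer, and their part in the Piezo levels was not tested.

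Many Piezo counts fell outside the layers. Cells of no layer held 51.5% of the Piezo1 counts of female region 1 (44.9 to 58.0) and 39.5% of the Piezo2 counts (32.2 to 47.3), next to 36.2% of the other-gene counts. Fn1+Vim cells under the rule held 31.4% of each gene's counts and 16.9% of the other-gene counts. Aqp8+Slc26a3 cells held 35.04% of the other-gene counts, with 5.02% of Piezo1 (2.62 to 8.61) and 17.4% of Piezo2 (12.1 to 24.0).

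The levels were also taken apart by gene within each rule. Among Fn1+Vim cells, those with both genes had a Piezo1 level of 193 (140 to 259, 378 cells) and those with Fn1 and no Vim a level of 96.3 (62.9 to 141, 533 cells), and the intervals touch only at their edges. Piezo2 stood at 127 (85.0 to 182) and 74.1 (45.3 to 114) in these groups, with overlapping intervals. Among Cftr+Kcnn4 cells, 17 of 20 Piezo1 counts were in cells with Kcnn4 and no Cftr, a level of 111 (64.7 to 178), while cells with Cftr and no Kcnn4 had 2 counts, a level of 30.9 (3.74 to 111), with overlapping intervals. Among Aqp8+Slc26a3 cells, 10 of 12 Piezo1 counts and 26 of 30 Piezo2 counts were in the 687 cells with both genes, where the levels were 10.4 (4.98 to 19.1) and 27.0 (17.6 to 39.6).

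Cells that met 2 or more rules held 33 counts of each gene, 13.8% of the Piezo1 and 19.2% of the Piezo2 counts of female region 1, beside 15.8% of the other-gene counts. The 81 cells in the Cftr+Kcnn4 and Fn1+Vim layers together held 8 Piezo1 counts, a level of 163 (70.5 to 322), and the 127 cells in Pdgfra and Fn1+Vim held 14, a level of 145 (79.4 to 244). The 168 cells in Des and Fn1+Vim held 10, a level of 74.9 (35.9 to 138). These intervals overlap those of the single layers, so no rise with the second marker can be read from them. The 85 cells in Pdgfra and Aqp8+Slc26a3 held 1 Piezo1 count, a level of 6.40 (0.162 to 35.6), below the single Pdgfra layer. They held 7 Piezo2 counts, a level of 44.8 (18.0 to 92.3). The highest blank had 7 counts in these cells, so neither gene was above it. Grouped more broadly, cells of the Des, Pdgfra or Fn1+Vim layers with no epithelial marker rule had 122 for Piezo1 (97.5 to 151) and 102 for Piezo2 (79.4 to 129). Cells of the Cftr+Kcnn4 or Aqp8+Slc26a3 layers and no other kind had 17.9 (10.6 to 28.3) and 23.8 (15.3 to 35.5). These are 18 Piezo1 and 24 Piezo2 counts, and the highest blank had 24, so neither gene was above it in this pool. The pool joins unlike layers for Piezo1. Of cells meeting exactly 1 rule, Cftr+Kcnn4 cells held 11 Piezo1 counts, above all 40 blanks, and Aqp8+Slc26a3 cells 7, above 31. Cells meeting rules of both kinds had 47.9 (26.2 to 80.3) and 34.2 (16.4 to 62.9).

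Levels were next set out by the number of marker counts in the cell, which shows the cells just inside and just outside each threshold. Piezo1 was 57.5 in cells with no Fn1 or Vim count (47.2 to 69.3), 79.7 with 1, 102 with 2 and 171 with 3 or more (128 to 223). Piezo2 was 43.2, 52.2, 107 and 99.9 over the same steps, without a further step after the second count. With Aqp8 and Slc26a3 the order was the opposite: Piezo1 was 120 in cells with no count (104 to 138), 72.9 with 1, 7.45 with 2 (1 Piezo1 count) and 11.5 with 3 or more. Piezo2 was 72.7, 57.7, 59.6 and 23.0. The highest blank had 3 counts in cells with 2 and 31 in cells with 3 or more. Piezo1 was below it in both, with 1 and 11 counts, and Piezo2, with 8 and 22, in the last. The share of cells with a Piezo2 count rose over these steps, at 1.79%, 2.07%, 3.00% and 3.38%. For Piezo1 that share was 3.23%, 2.76%, 0.375% and 1.69%. The rule for the Aqp8+Slc26a3 layer begins at 2 counts, where Piezo1 stood at 7.45 (0.188 to 41.5) and Piezo2 at 59.6 (25.7 to 117). For Des, Piezo1 stood at 79.0 with no count and 45 with 3 or more, and for Pdgfra at 77.3 and 48.3, in both cases with overlapping intervals.

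**Figure D2:**
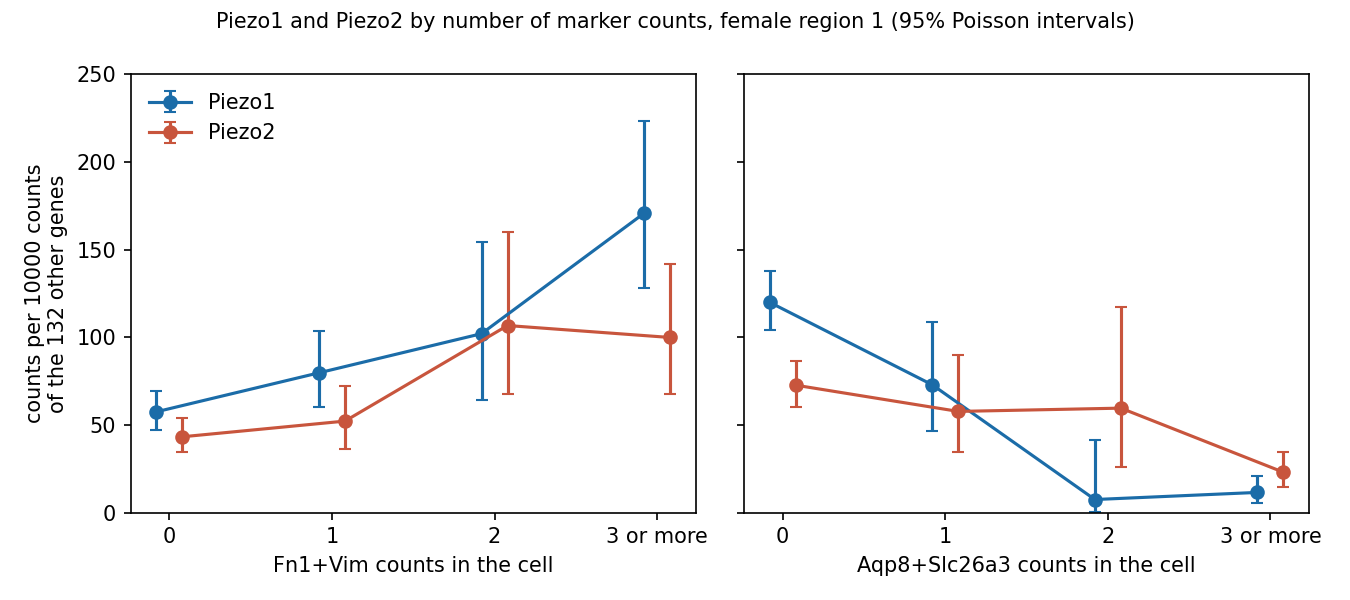
Piezo1 and Piezo2 per 10000 counts of the 132 other genes (vertical axis) in cells of female region 1 grouped by how many counts of Fn1 plus Vim (left) or Aqp8 plus Slc26a3 (right) they held (horizontal axis), with exact 95% Poisson intervals. Piezo1 goes from 57.5 to 171 along the left axis and from 120 to 11.5 along the right axis. In the last group on the right the highest blank, not drawn, had 31 counts, against 11 of Piezo1 and 22 of Piezo2.

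Depth within a cell moved with the layers and with Piezo1. A cell was called shallow when its panel total was under 10 and deep otherwise. Shallow cells made up 75.7% of Des cells, 64.5% of Pdgfra cells, 61.7% of Fn1+Vim cells, 73.2% of Cftr+Kcnn4 cells and 33.4% of Aqp8+Slc26a3 cells. Over all cells of female region 1 the Piezo1 level was 117 in shallow cells (99.7 to 136) and 42.1 in deep cells (32.8 to 53.2), a ratio of 2.77 (2.09 to 3.72). Piezo2 gave 69.7 and 42.7, a ratio of 1.63 (1.19 to 2.25), and the blanks gave 0.789 (0.663 to 0.938). Of 113 panel genes with at least 20 counts, 12.4% were at least 2-fold higher in shallow cells, with a median ratio of 1.26. Piezo1 ranked 4 and Piezo2 32 in that order. With depth measured by the total without the Piezo and rule genes, the ratios were 3.72 for Piezo1 (2.63 to 5.38) and 2.56 for Piezo2 (1.77 to 3.77). That total is the denominator of the levels less the Piezo counts, so this split sorts cells by the denominator itself. No share over all genes was computed for it. In finer steps Piezo1 was 135, 99.4, 59.8 and 26.8 in cells with totals of 1 to 4, 5 to 9, 10 to 19 and 20 or more, and Piezo2 was 69.2, 70.2, 54.6 and 32.4. Just inside and outside the boundary, cells with a total of 9 had 101 for Piezo1 and 50.5 for Piezo2, and cells with a total of 10 had 74.6 and 93.3.

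Within each layer under the rule the Piezo1 level was also the higher one in shallow cells. The shallow and deep levels were 85.9 and 44.7 in Des cells, 152 and 45.6 in Pdgfra cells, 187 and 124 in Fn1+Vim cells, 152 and 47.0 in Cftr+Kcnn4 cells, and 41.1 and 8.06 in Aqp8+Slc26a3 cells. The interval of the ratio excluded 1 in Pdgfra cells (3.33, 1.43 to 7.87), Cftr+Kcnn4 cells (3.22, 1.19 to 9.53) and Aqp8+Slc26a3 cells (5.10, 1.12 to 19.03), and included 1 in Des cells (1.92, 0.741 to 5.05) and Fn1+Vim cells (1.50, 0.912 to 2.45). With depth measured without the Piezo and rule genes, and so by the denominator, the ratio in Aqp8+Slc26a3 cells was 3.69 with an interval that includes 1 (0.987 to 13.8). Those in Pdgfra cells (5.80, 2.13 to 19.7) and Cftr+Kcnn4 cells (4.97, 1.44 to 26.5) again excluded 1, with no share over all genes computed. In deep Aqp8+Slc26a3 cells the 8 Piezo1 counts were below the highest blank, which had 30. Of genes with at least 20 counts, 9.09% were at least 2-fold higher in the shallow Des cells, 23.7% in Pdgfra, 6.78% in Fn1+Vim, 10% in Cftr+Kcnn4 and 14.8% in Aqp8+Slc26a3 cells. Piezo1 was past that fold in 2 of the 4 layers where it had the 20 counts (Pdgfra and Cftr+Kcnn4) and ranked 1 in both. In cells that met the Fn1+Vim rule alone the order was not seen: Piezo1 was 168 in shallow cells (103 to 260) and 194 in deep cells (124 to 288). In cells of the Aqp8+Slc26a3 layer alone it was 45.4 (12.4 to 116, 4 counts) and 3.91 (0.807 to 11.4, 3 counts). The 26 deep cells of the Pdgfra layer alone held 0 Piezo1 counts, which allows a level of up to 103.

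Piezo2 showed little of this inside the layers. Its shallow and deep levels were 78.1 and 58.1 in Des cells, 86.7 and 83.6 in Pdgfra cells, 103 and 102 in Fn1+Vim cells, 11.7 and 33.6 in Cftr+Kcnn4 cells, and 51.3 and 25.2 in Aqp8+Slc26a3 cells, and each ratio's interval included 1. In cells of no layer it was 67.5 in shallow cells (52.0 to 86.2) and 22.4 in deep cells (6.11 to 57.4, 4 counts), a ratio of 3.01 (1.12 to 11.4), where 18.3% of genes were past 2-fold. Among shallow single-layer cells Fn1+Vim exceeded Aqp8+Slc26a3 3.71-fold for Piezo1 (1.24 to 14.9, 4 counts in the lower group) and 2.22-fold for Piezo2 (0.768 to 7.82). Among deep cells both genes were below the highest blank in Aqp8+Slc26a3 cells, with 3 and 16 counts against 23, and the Fn1+Vim levels were 6.46 and 3.77 times that blank.

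**Figure D3:**
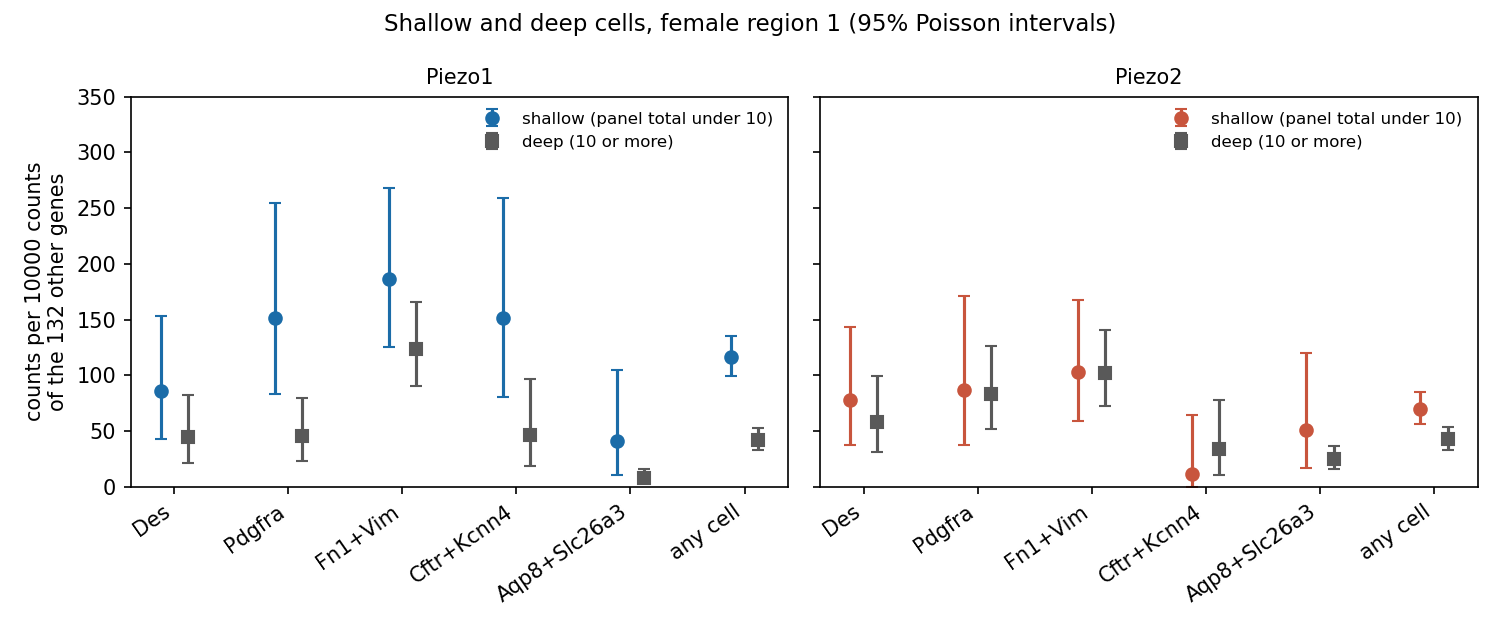
Piezo1 (left) and Piezo2 (right) per 10000 counts of the 132 other genes (vertical axis) in shallow cells (circles) and deep cells (squares) meeting each rule in female region 1, and in any cell with a count (horizontal axis); bars are exact 95% Poisson intervals. Piezo1 circles lie above the squares in each layer, from 187 against 124 in Fn1+Vim cells to 41.1 against 8.06 in Aqp8+Slc26a3 cells, while Piezo2 circles and squares overlap in each layer.

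The balance between the genes was furthest apart between the Cftr+Kcnn4 and Aqp8+Slc26a3 layers. Piezo1 made up 76.9% of the Piezo counts in Cftr+Kcnn4 cells (56.4 to 91.0, 26 counts) and 28.6% in Aqp8+Slc26a3 cells (15.7 to 44.6, 42 counts), intervals that do not overlap. It made up 58.1% in Fn1+Vim cells (49.1 to 66.8), 47.7% in Des cells (32.5 to 63.3), 46.4% in Pdgfra cells (33.0 to 60.3) and 64.4% in cells of no layer (57.2 to 71.2). In cells meeting exactly 1 rule the first pair of values was 84.6% (54.6 to 98.1) and 25% (10.7 to 44.9). These layers differ in depth, and within a depth the intervals overlapped: 92.9% (66.1 to 99.8) and 44.4% (13.7 to 78.8) in shallow cells, and 58.3% (27.7 to 84.8) and 24.2% (11.1 to 42.3) in deep cells. Piezo2 in Cftr+Kcnn4 cells rests on 6 counts, and over all depths neither gene was above the highest blank in Aqp8+Slc26a3 cells. The difference compares cells of 1 section and was not tested across animals.

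**Figure D4:**
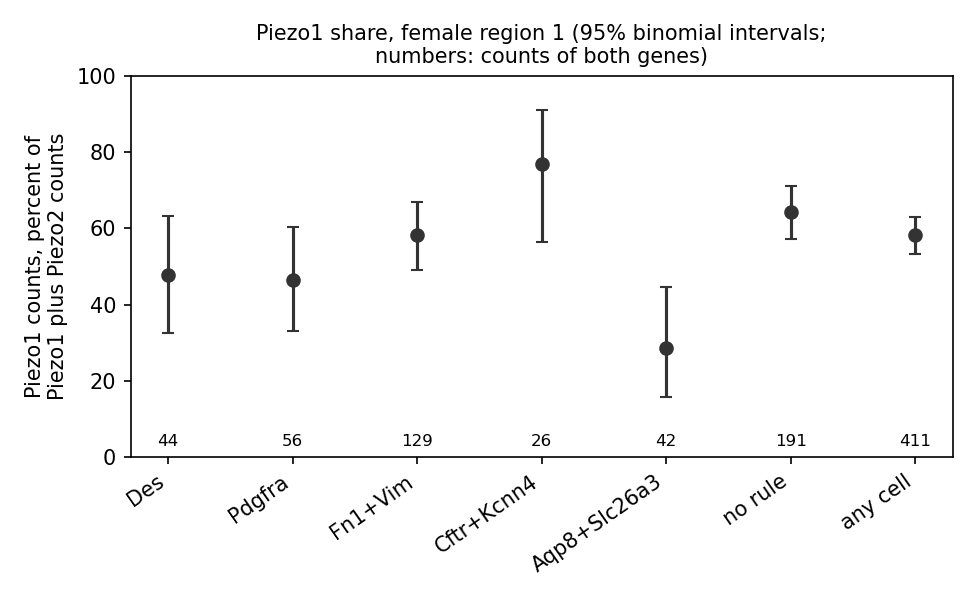
Piezo1 counts as a percent of Piezo1 plus Piezo2 counts (vertical axis) in cells of female region 1 meeting each rule, no rule, and in any cell with a count (horizontal axis); bars are exact 95% binomial intervals and the numbers above the axis are the counts of both genes. The share is 76.9% in Cftr+Kcnn4 cells and 28.6% in Aqp8+Slc26a3 cells.

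The genes were seldom counted in the same cell. In female region 1, 6 cells held both, of 224 with Piezo1 and 152 with Piezo2. The Piezo2 level was 71.6 in cells with a Piezo1 count and 55.1 in the rest, a ratio of 1.30 (0.552 to 2.62), an interval that includes 1. Counts were spread thinly: the highest in a cell of female region 1 was 3 for either gene, and 211 of the 224 Piezo1 cells and 134 of the 152 Piezo2 cells held 1.

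In the male, Piezo2 counts lay in a few cells, and nearly all counts of any gene lay outside the layers. All 38 Piezo2 counts of the male lay in cells of no layer, which held 96.3% of its other-gene counts. They were in 14 cells, with 13 counts in the highest. Without that cell the level of male region 0 was 84.2 in place of 123. Deep cells of male region 0 had 216 and shallow cells 27.2, a ratio of shallow to deep of 0.126 (0.032 to 0.353), the opposite order to female region 1. Female region 0 had the same order as the male region, with 82.6 in deep and 25.3 in shallow cells (ratio 0.306, 0.097 to 0.836), at counts below its highest blank. Cells with a count of 1 of 7 enteric neuron markers on the panel had a Piezo2 level of 223 in male region 0 (150 to 318, 30 counts in 8 of 154 cells), and cells with 1 of 5 enteric glial markers 214 (122 to 348, 16 counts in 6 of 38 cells). The highest blank had 4 and 3 counts in these cells. Of the 30 counts, 13 lay in 1 cell, and no glial marker cell held more than 6. Some cells belong to both groups, and the intervals take every count as independent. In the neuron marker cells of female region 0 Piezo2 had 15 counts in 9 of 184 cells and the highest blank 29, and in those of female region 1 Piezo2 had 8 counts in 6 of 208 cells and the highest blank 8, so Piezo2 was not above background in either. Piezo1 had 0 counts in neuron marker cells of male region 0 and female region 0. The 44 male layer cells held 130 other-gene counts and 0 Piezo counts, so the layers could not be compared in the male at this depth.

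The layer differences were then fitted across genes, on counts summed per animal over cells meeting exactly 1 rule, against cells of no layer, with the animal as a block. Piezo1 was lower in Aqp8+Slc26a3 cells and the other layers did not pass. The edgeR quasi-likelihood test over 98 genes gave a log2 fold change of -3.35 ± 0.82 (SE, adjusted p = 0.00145) for Piezo1 in Aqp8+Slc26a3 cells. In that comparison 29.6% of genes were called, 28 of the 29 lower and 1 higher, with a median log2 fold change of -0.91 over all genes tested, so calls were common there and Piezo1 lay below the median gene. Piezo1 in these cells of female region 1 was above 31 of the 40 blanks and below the highest, so the size of a fold against them is not a measure of Piezo1 alone. Scaled per cell in place of per count, the median was 1.16, 39 genes were called higher and 5 lower, and Piezo1 was at -1.27 (adjusted p = 0.0443), again below the median gene. For the other layers the Piezo1 log2 fold changes were 1.08 ± 0.43 in Fn1+Vim cells (adjusted p = 0.124), 0.50 ± 0.44 in Pdgfra cells (0.850), -0.22 ± 0.47 in Cftr+Kcnn4 cells (0.885) and -0.58 ± 0.48 in Des cells (0.572). Calls in these made up 6.12%, 2.04%, 1.02% and 4.08% of genes. Piezo2 passed in 0 of 5 comparisons by edgeR (2 at an unadjusted p under 0.05) and by DESeq2 (1 unadjusted). Its log2 fold changes were 0.78 ± 0.67 in Fn1+Vim, 0.15 ± 0.61 in Pdgfra, -0.14 ± 0.68 in Des, -1.49 ± 0.74 in Aqp8+Slc26a3 and -2.40 ± 1.02 in Cftr+Kcnn4 cells.

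**Figure D5:**
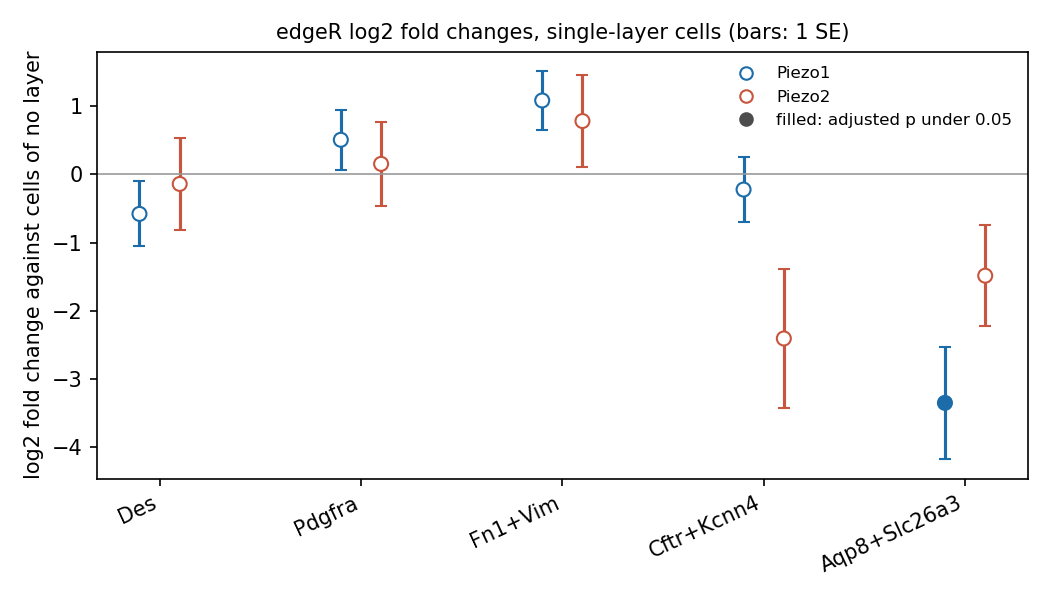
Log2 fold change of Piezo1 and Piezo2 in cells of each single layer (horizontal axis) against cells of no layer (vertical axis), from the edgeR fit over both animals; bars are 1 standard error and a filled point has an adjusted p under 0.05. The filled point is Piezo1 in Aqp8+Slc26a3 cells, at -3.35.

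Between pairs of layers, Piezo1 was higher than in Aqp8+Slc26a3 cells in each of the other 4 layers. The Aqp8+Slc26a3 side held 7 Piezo1 counts in female region 1, where the highest blank had 24. The size of these folds is therefore not a measure of Piezo1 alone. The edgeR log2 fold changes were 4.43 ± 1.01 for Fn1+Vim (adjusted p = 0.000218, 32.7% of genes called), 3.85 ± 0.92 for Pdgfra (0.00225, 15.3%), 3.12 ± 0.80 for Cftr+Kcnn4 (0.00324, 24.5%) and 2.77 ± 0.75 for Des (0.00267, 28.6%). Piezo2 was higher in Fn1+Vim cells than in Aqp8+Slc26a3 cells, at 2.26 ± 0.88 (adjusted p = 0.0328), and than in Cftr+Kcnn4 cells, at 3.18 ± 1.15 (adjusted p = 0.0465, where 8.16% of genes were called higher in Fn1+Vim and 13.3% in either direction). Piezo2 was not above the highest blank in either of those epithelial layers, and the Cftr+Kcnn4 side holds 2 counts. Piezo1 in Fn1+Vim against Cftr+Kcnn4 cells missed the threshold at 1.30 ± 0.49 (adjusted p = 0.0514), as did Des against Fn1+Vim at -1.66 ± 0.55 (0.0739). In all, 4 of 10 pairs passed for Piezo1 and 2 of 10 for Piezo2.

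These p-values say little about animals. The male had no Fn1+Vim cell, so every Fn1+Vim comparison has an arm of 1 sample, the female sum, whose spread is taken from the other groups. The male sums of the other 4 layers held 0 Piezo counts and at most 59 other-gene counts each, so the fitted differences are those of the female, nearly all from female region 1. The cells of no layer in the fit also include those of the other 3 regions. The Piezo1 call in Aqp8+Slc26a3 cells against cells of no layer was lost with TMM factors (adjusted p = 0.446), with DESeq2 (0.644), without the animal block (0.383), in deep cells alone (-3.31, 0.0807) and in shallow cells alone (-1.08, 0.235), and held in 6 of 11 fitted alternatives. The 6 calls between pairs were lost likewise with TMM factors, DESeq2 and no animal block.

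Other genes of the same function were few on the panel. Of 21 listed mechanically gated or stretch-linked channels other than the Piezo genes, 0 were on the panel. Of 20 calcium handling genes, 3 were: Kcnn4, which is part of a rule, and the voltage-gated calcium channel genes Cacna1c and Cacna1e. Cacna1c, the main L-type channel of smooth muscle, was higher in Des cells than in cells of no layer (log2 fold change 1.83 ± 0.51, edgeR adjusted p = 0.0149) and lower in Aqp8+Slc26a3 cells (-2.13 ± 0.58, adjusted p = 0.00212). Its levels in female region 1 were 95.2 (53.3 to 157) and 5.85 (1.90 to 13.7), against 33.7 in cells of no layer. The 5 Cacna1c counts in Aqp8+Slc26a3 cells were above 28 of the 40 blanks. Cacna1e did not pass in any of the 5 comparisons, with levels between 12.3 in Fn1+Vim cells and 49.5 in Cftr+Kcnn4 cells. Of the 2 genes tested, 1 was called higher in Des cells, as were 1.02% of all genes, and 1 lower in Aqp8+Slc26a3 cells, as were 28.6%. The 1.02% is Cacna1c itself, the only 1 of the 98 genes called higher in Des cells.

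The pattern over layers and depths was compared with that of 65 panel genes with at least 100 counts, over 12 points (5 single layers and no layer, shallow and deep cells apart, both animals summed). Among the genes with the highest Pearson correlations of log2(level + 1) with Piezo1 were the Wnt receptor gene Ror2 (0.842), the matrix gene Matn2 (0.736) and Sltm (0.626). For Piezo2 the highest were those of the TGF-beta co-receptor gene Tgfbr3 (0.740), the planar polarity gene Prickle2 (0.665), the growth factor receptor gene Fgfr1 (0.656), the collagen gene Col12a1 (0.655) and the caveolin gene Cav1 (0.624). Piezo1 and Piezo2 correlated at 0.137 with each other. The points share 1 section and differ in depth, so these values describe the groups and are given without a test.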

How the data were processed

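The authors deposited 1 table of counts per imaged region, each value the whole-number count of a gene's transcripts assigned to a segmented cell, for 140 genes and 40 blank barcodes. The submitters' processing notes name Seurat. Its role, its version, the segmentation and the genome build are not stated in the sources used. Both genes matched the RefSeq gene table of mouse by symbol. Cells were kept at any depth, none were removed as doublets, and spill of transcripts between neighbouring cells was not corrected. The genes, rules and lists were chosen with earlier results of these data known.

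Levels, exact Poisson intervals and exact (Clopper-Pearson) binomial intervals at 95% were computed with Python 3.11.15 and scipy 1.17.1. A count of 0 allows up to 3 counts. The edgeR 4.0.16 quasi-likelihood test in R 4.3.3 used counts of cells meeting exactly 1 rule, summed per animal and layer, with genes of at least 50 counts, library sizes from the 132 other genes, the animal as a block, 4 residual degrees of freedom and Benjamini-Hochberg adjustment at 0.05. SE values were derived from the p-value and the fold change. The fit was tested on simulated data. Alternatives included TMM factors, DESeq2 1.42.0, other depths and thresholds, and counts per cell. Named genes were the Piezo and rule genes, listed channels on the panel, and the 5 genes most like each Piezo gene, of which some are not reported here.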

Additional observations from a re-analysis of the deposited data

How the results depend on the processing

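Layer results rest on 1 region of 1 animal. Among alternatives with a value, 257 kept the direction and, where tested, the side of the threshold, or moved by less than the counting interval. Of these 257, 39 came from leaving out the male, where no test was run. The male layer sums held 0 Piezo counts, so these 39 are a weak check. Of the other alternatives with a value, 32 lost a call, 5 gained one, 23 turned the direction and 9 moved. Another 14 gave no value because a side held no Piezo count, and the male alone, or the series without female region 1, cannot replace the female layers. Higher marker thresholds, and Fn1+Vim cells under the rule against all other cells, could not be fitted. Depth limits the deep single-layer values most, which rest on 0 to 3 Piezo counts in Des, Pdgfra and Cftr+Kcnn4 cells. The cause of the changes was not tested.

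With TMM factors, Piezo1 against cells of no layer was -2.72 in Aqp8+Slc26a3 and -0.015 in Pdgfra cells, and Piezo2 was -2.47 in Pdgfra and -1.71 in Fn1+Vim cells. Against Aqp8+Slc26a3, Piezo1 was then 1.89 in Des, 2.70 in Pdgfra, 3.35 in Fn1+Vim and 2.44 in Cftr+Kcnn4 cells, and Piezo2 in Fn1+Vim was 1.58, with 2.78 against Cftr+Kcnn4. None of these passed. With DESeq2, Piezo1 against cells of no layer was -1.82 in Aqp8+Slc26a3, 0.11 in Des and 0.25 in Cftr+Kcnn4 cells, and Piezo2 was -2.34 in Pdgfra and -1.62 in Fn1+Vim cells. Against Aqp8+Slc26a3, Piezo1 was 1.93, 2.34, 2.94 and 2.07 in the same order, and Piezo2 in Fn1+Vim was 1.57, with 2.52 against Cftr+Kcnn4, none of which passed. With no animal block, Piezo1 against cells of no layer was -2.47 in Aqp8+Slc26a3, 0.31 in Des and 0.49 in Cftr+Kcnn4 cells, and Piezo2 was -0.24 in Pdgfra cells. Against Aqp8+Slc26a3, Piezo1 was 2.78, 3.48, 4.46 and 2.95, and Piezo2 in Fn1+Vim was 2.31, with 3.20 against Cftr+Kcnn4, none of which passed.

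In deep cells alone, Piezo1 was -3.31 in Aqp8+Slc26a3 cells against cells of no layer, and against Aqp8+Slc26a3 it was 3.04 in Des and 2.50 in Cftr+Kcnn4 cells. Piezo2 in Fn1+Vim was 3.21 against Cftr+Kcnn4 and 2.46 against Aqp8+Slc26a3. None of these passed, and Piezo1 in Des against Cftr+Kcnn4 turned to 0.54. In shallow cells alone, Piezo1 was -1.08 in Aqp8+Slc26a3 cells against cells of no layer, and against Aqp8+Slc26a3 it was 0.58 in Des, 1.91 in Pdgfra and 1.49 in Cftr+Kcnn4 cells. Piezo2 in Fn1+Vim against Aqp8+Slc26a3 was 1.14, and none of these passed. Piezo2 in Des turned to 0.18, Piezo1 in Cftr+Kcnn4 to 0.41 and Piezo1 in Pdgfra against Fn1+Vim to 0.041. The call of Piezo1 in Fn1+Vim against Aqp8+Slc26a3 held in 4 of 7 alternatives.

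With at most 1 count per cell, Fn1+Vim against cells of no layer moved past the threshold for Piezo1 at 0.85 and Piezo2 at 0.93. The median over all genes tested was 0.083, and the Fn1+Vim arm is 1 sample. Piezo2 in Des turned to 0.38, and to 0.013 against Pdgfra. Per cell, Piezo1 in Fn1+Vim moved past it at 1.69, with the same arm of 1 sample and a median of 0.60 over all genes. Piezo1 in Cftr+Kcnn4 then turned to 0.45 and Piezo2 in Aqp8+Slc26a3 to 0.56. The per-cell ratios of rule layers to cells of no layer were 1.44, 2.51, 4.18, 2.14 and 0.711 for Piezo1 in Des, Pdgfra, Fn1+Vim, Cftr+Kcnn4 and Aqp8+Slc26a3, and 1.63, 2.98, 3.11 and 1.90 for Piezo2 in Des, Pdgfra, Fn1+Vim and Aqp8+Slc26a3. With rule layers against all other cells, Piezo2 in Des turned to 0.28 and Piezo1 in Cftr+Kcnn4 to 0.26. With all panel genes in the library size, Piezo2 was -0.31 in Pdgfra and passed in Aqp8+Slc26a3 at -2.00 (edgeR adjusted p = 0.0441). In that comparison 37 of 98 genes were called, with a median of -1.42. With sums per region it passed in Aqp8+Slc26a3 at -1.16 (0.0392), where 41 of 98 genes were called, with a median of -0.69. With no count filter, Piezo2 in Fn1+Vim against Cftr+Kcnn4 was 3.18 and missed the threshold (0.0686). Without replicate 1, the male, Piezo2 in Des was 0.19, with no test. Without the cell with most Piezo2 counts, chosen after seeing the data, male region 0 stood at 84.2.

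Genes called in Aqp8+Slc26a3 against cells of no layer numbered 29, against 0 with TMM factors and DESeq2, 3 with no block, 4 in deep cells, 14 in shallow cells, 44 per cell and 49 with at most 1 count per cell (13 higher, 36 lower). Over the alternatives the counts ran from 0 to 37 for Des, 0 to 3 for Pdgfra, 0 to 22 for Fn1+Vim and 0 to 15 for Cftr+Kcnn4. Against Aqp8+Slc26a3 they ran from 0 to 38 for Des, 0 to 23 for Pdgfra, 0 to 50 for Fn1+Vim and 0 to 31 for Cftr+Kcnn4, and from 0 to 25 for Fn1+Vim against Cftr+Kcnn4.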
